A study of Mus musculus with 14 samples.

Results

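The 10 imprinted genes described here are H19, Igf2, Peg3, Plagl1, Mest, Dlk1, Meg3, Kcnq1ot1, Snrpn and Grb10. They were taken by name from a list and are 10 of the 55413 genes of GENCODE release M21 on the mm10 chromosomes. H3K4me1, the mono-methylation of lysine 4 of histone H3, was mapped by ChIP-seq in NG3 cells. NG3 is a single clone of immortalized mouse embryo fibroblasts (iMEF), in which exon 4 of endogenous Ash2l was deleted and a lentiviral construct expresses human ASH2L fused to FKBP (FKBP-HA2-ASH2L). The fusion protein is degraded when the PROTAC dTAG-13 is added. All 14 libraries share this genotype, namely 2 H3K4me1 libraries of untreated cells, 2 at each of 30 min, 2 h, 4 h, 8 h and 16 h of dTAG-13, and 2 inputs, from untreated cells and from cells treated for 16 h. The deposited table holds 160144 H3K4me1 sites over all samples, each as a chromosome, a start and an end. It gives no library, time point or height for a site, so the values below are positions without replicates, and no test was made between conditions. A site may come from untreated cells, from treated cells or from both. The paper reports that sites gaining H3K4me1 after ASH2L loss were nearly all at promoters. A site at a promoter or control region below therefore need not be present in untreated cells. Reads of the maternal and the paternal allele are not separated, and where no site is listed the mark may be absent or too few reads may have been sequenced, which cannot be told apart.

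Imprinted genes are expressed mainly from the allele inherited from 1 parent. The choice is set in the germ line by DNA methylation of an imprinting control region, usually rich in CpG, that stays methylated on 1 parental allele in all tissues. The zinc finger protein ZFP57 recognizes the methylated word TGCCGC in many control regions and maintains their methylation, and at H19 the insulator protein CTCF binds the unmethylated maternal copy. Methylation of H3K4, above all tri-methylation, and methylation of DNA tend to exclude each other. Many imprinted genes are active in the embryo and placenta and become silent after birth.

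Among the members, Igf2 encodes a fetal growth factor, and H19 is a non-coding RNA that shares enhancers with it. Dlk1 encodes a transmembrane protein of the Notch ligand family, Meg3 is the non-coding RNA of the same cluster, Peg3 and Plagl1 encode zinc finger proteins, and Mest encodes a protein with a hydrolase fold. Kcnq1ot1 is an RNA that is antisense to Kcnq1 and silences neighbouring genes in cis, Snrpn encodes a component of the spliceosome, and Grb10 encodes an adaptor protein that inhibits insulin and growth factor signaling. Igf2, Peg3, Plagl1, Mest, Dlk1, Kcnq1ot1 and Snrpn are expressed from the paternal allele and H19, Meg3 and Grb10 from the maternal allele, with Grb10 switching to the paternal allele in neurons.

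To show what the control regions look like at the level of sequence, stretches of GRCm38.p6 (mm10) outside exons of protein-coding genes are printed for regions with and without a site. In the region of H19 and Igf2, placed 2 to 4 kb upstream of the H19 TSS (transcription start site), a CTCF word was found 3 times in a search of both strands. The word has 14 bases, of which the sixth and the ninth may be any base. It is shown in capitals with 8 bases on either side, on the minus strand, from the farthest to the nearest to H19.
H19 upstream word 1, chr7:142582026-142582055: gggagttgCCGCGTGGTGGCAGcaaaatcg
H19 upstream word 2, chr7:142580756-142580785: ggatgctaCCGCGCGGTGGCAGcatactcc
H19 upstream word 3, chr7:142580301-142580330: agacgatgCCGCGTGGTGGCAGtacaatac
The word is rare, since only 5 of 55413 windows of the same length and place upstream of a TSS hold it (0.009%), that of H19 itself among them. Words 1 and 3 overlap a TGCCGC word by part of its letters, and word 2 does not. Word 3 lay inside an H3K4me1 site and words 1 and 2 did not.

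The region between Dlk1 and Meg3 and the promoter region of Peg3 held no site. In the sequences that follow, capitals mark TGCCGC or its reverse complement GCGGCA. Each stretch comes from the longest piece of its region without protein-coding exons, for Dlk1/Meg3 from the CpG island in the region. Pieces longer than 300 bases were cut to the 300 bases with the most such words, and shorter pieces were taken whole. A stretch therefore need not be typical of its region or hold most of its words. The stretches picked at Grb10, with 0 words, and at Snrpn, with 2 words and 0 bases in a site, are not printed.
Dlk1/Meg3, plus strand, chr12:109528253-109528472: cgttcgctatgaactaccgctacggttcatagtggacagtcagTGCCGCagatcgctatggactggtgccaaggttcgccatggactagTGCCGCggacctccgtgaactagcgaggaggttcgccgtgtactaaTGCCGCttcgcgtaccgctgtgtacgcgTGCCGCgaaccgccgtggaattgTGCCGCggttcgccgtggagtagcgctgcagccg
Peg3, minus strand, chr7:6729451-6729750: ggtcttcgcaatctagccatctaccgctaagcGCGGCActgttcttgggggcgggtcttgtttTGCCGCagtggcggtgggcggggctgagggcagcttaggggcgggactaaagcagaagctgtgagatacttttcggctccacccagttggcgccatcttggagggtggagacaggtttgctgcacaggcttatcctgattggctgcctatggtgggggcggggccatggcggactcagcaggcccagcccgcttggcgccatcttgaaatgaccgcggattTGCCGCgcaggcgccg
The first is a CpG island of 220 bp with 5 words, which lies between genes. The second lies in Peg3, within the island that runs from 636 to 970 bp downstream of the TSS, and holds 3 words. For comparison, stretches from regions with a site are given for Plagl1, Mest and Kcnq1ot1.
Plagl1, plus strand, chr10:13091025-13091299: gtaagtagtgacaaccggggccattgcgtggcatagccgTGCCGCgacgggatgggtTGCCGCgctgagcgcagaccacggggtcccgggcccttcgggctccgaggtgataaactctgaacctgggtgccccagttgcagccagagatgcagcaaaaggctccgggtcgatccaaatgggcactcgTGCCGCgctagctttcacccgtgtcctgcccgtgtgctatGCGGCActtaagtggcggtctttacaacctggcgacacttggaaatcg
Mest, plus strand, chr6:30738336-30738499: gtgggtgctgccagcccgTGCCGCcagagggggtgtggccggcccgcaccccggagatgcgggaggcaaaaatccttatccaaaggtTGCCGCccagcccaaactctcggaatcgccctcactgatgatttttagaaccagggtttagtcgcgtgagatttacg
Kcnq1ot1, minus strand, chr7:143295447-143295746: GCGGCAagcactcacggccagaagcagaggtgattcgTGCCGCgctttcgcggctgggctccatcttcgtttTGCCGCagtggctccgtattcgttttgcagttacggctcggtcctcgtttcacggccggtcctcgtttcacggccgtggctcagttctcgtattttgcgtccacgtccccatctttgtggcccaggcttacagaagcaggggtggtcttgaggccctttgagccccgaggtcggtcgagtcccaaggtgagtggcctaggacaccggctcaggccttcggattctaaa
All 275 bases of the Plagl1 stretch with its 4 words and all 164 bases of the Mest stretch with its 2 words lay in a site. Of the 300 bases at Kcnq1ot1, 191 lay in a site, and the 3 words there were outside it. A TGCCGC word is common in CpG-rich sequence, since 43.4% of the 16099 CpG islands of the genome have it in the 500 bp at their centre, with a median of 0 words. In the central 500 bp of the control regions there were 7 words at Mest, 5 at Peg3, 5 at Dlk1/Meg3, 4 at Grb10, 3 at Plagl1, 3 at Snrpn, 1 at Kcnq1ot1 and 0 at H19/Igf2. Regions with a site therefore had 0 to 7 words and regions without a site 4 to 5, and these ranges overlap.

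Next, all sites over each gene and its 50 kb flanks, here called its window, were counted. The 10 windows held 76 distinct sites, from 0 at Peg3, Dlk1 and Meg3 to 32 at Grb10. Igf2 and Snrpn had 1 site each, H19 had 3, Plagl1 had 10, Mest had 12 and Kcnq1ot1 had 17. The windows of Igf2 and H19 share 27378 bp and those of Dlk1 and Meg3 share 22336 bp, but no site was in 2 windows. Of the 76 sites, 41 lay in the body of a member and 35 in the flanks. By position, 19 lay within 1 kb of an annotated TSS, 36 in introns, 10 in exons and 11 between genes. Their median width was 606.5 bp, against 603 bp for all sites, so the sites near imprinted genes were of ordinary size while their number varied widely. They measured 200 to 3274 bp, the widest upstream of Grb10.

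**Figure D1:**
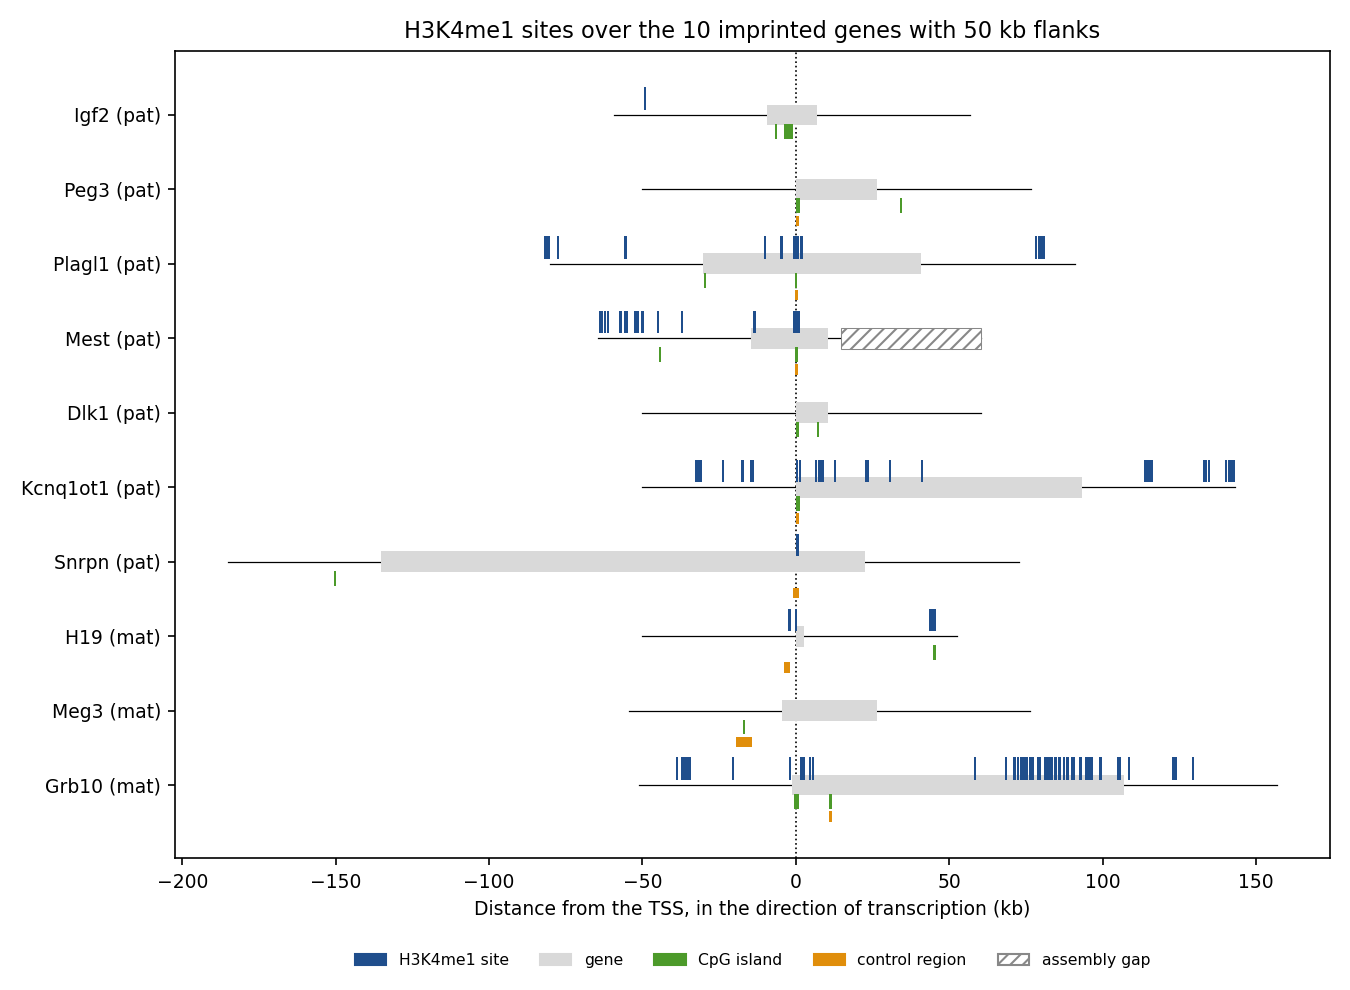
Positions of H3K4me1 sites (blue), CpG islands (green) and control regions (orange) over each imprinted gene (grey) with 50 kb flanks, by distance from its TSS in kb in the direction of transcription; pat and mat give the parental allele expressed, and features under about 1 kb are drawn with a minimum width. Grb10 has 32 sites and Kcnq1ot1 has 17, while Peg3, Dlk1 and Meg3 have 0 and the single site of Snrpn lies at its TSS.

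The share of bases that lie in a site allows windows of different length to be compared. Its median was 1.57% over the 10 genes, against 5.11% over all genes (quartiles 0.481 and 12.4%) and 10.5% over the 14582 genes with a CpG island within 1 kb of the TSS. The median number of sites was 2 for the imprinted genes and 8 for all genes. By gene, the share was 13.9% at Grb10, 9.37% at Kcnq1ot1, 8.49% at Mest, 3.72% at Plagl1, 2.89% at H19, 0.241% at Igf2 and 0.188% at Snrpn. Thus 7 of the 10 genes were below the median of all genes, and Grb10 was above the upper quartile. When each gene was compared with genes of the same type and of 0.5 to 2 times its length, 8 of 10 lay below the median. Grb10 (13.9 against 8.00%) and Kcnq1ot1 (9.37 against 4.80%) were above it. The place of Mest depended on an assembly gap of 50000 bp, which begins 4347 bp downstream of the gene. Over all bases of its window Mest was below its comparison (8.49 against 8.92%). Over the sequenced bases alone, an alternative chosen after seeing the data, 13.4% were covered, which put Mest above the same 8.92% and left 7 of 10 genes below the median.

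**Figure D2:**
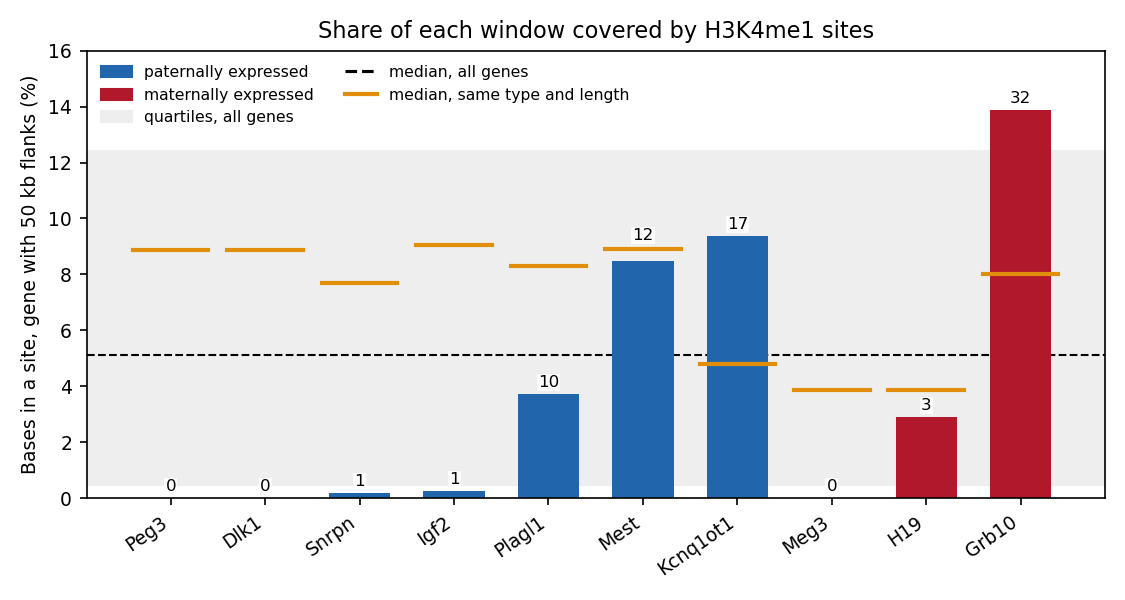
Share of bases of the gene and its 50 kb flanks that lie in an H3K4me1 site, in percent, for paternally (blue) and maternally (red) expressed genes, with the number of sites above each bar. Dashed line and grey band, median (5.11%) and quartiles of all genes; orange lines, median of genes of the same type and similar length; Grb10 (13.9%) and Kcnq1ot1 (9.37%) exceed their own orange line.

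At the promoter, defined as 1 kb on either side of the TSS of the best supported transcript, 5 of the 10 genes had an H3K4me1 site, namely Plagl1, Mest, Kcnq1ot1, Snrpn and H19. Of all genes, 38.6% had such a site. Of the 7 members with an island within 1 kb, 3 had a promoter site (Plagl1, Mest and Kcnq1ot1), whereas 90.3% of all genes with an island did. The 4 island promoters without a site were those of Igf2, Peg3, Dlk1 and Grb10. Of the 3 members without an island, Snrpn and H19 had a promoter site and Meg3 did not, where 20.1% of all genes without an island had one. No member had its TSS itself inside a site, against 23.2% of all genes and 57.0% of genes with an island. At Plagl1 and Mest the TSS was free and flanked by a site on both sides within 1 kb, a form found at 6.59% of all genes and at 21.3% of genes with an island. The 10 genes have 73 distinct annotated TSSs, of which 22 had a site within 1 kb and 4 were covered, 3 of them at Grb10 and 1 at Plagl1. The share over all annotated TSSs of the genome was not computed.

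At Plagl1 (plus strand, chr10:13060504-13131694) the upstream site ran from -808 to -392 bp and the downstream site from 97 to 1020 bp relative to the TSS at 13090788. The CpG island of this promoter, of 767 bp, is the control region of the locus, which is methylated on the maternal allele. Of it, 415 bp or 54.1% lay in the downstream site. A further island of 345 bp at an upstream Plagl1 promoter, from -29866 to -29522 bp, held no site. The remaining sites of the window lay 5' of the gene, in its introns and, at its 3' side, in Zc2hc1b.

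Mest (plus strand, chr6:30723547-30748465) showed a similar arrangement. Sites lay from -791 to -303 bp and from 160 to 1409 bp relative to the TSS at 30738053, and 287 bp or 48.5% of the 592 bp island at this promoter were covered. This island is again the control region, methylated on the maternal allele. The remaining site in the gene lay near the upstream start of other Mest transcripts. Of the 12 sites of the window, 8 lay over the neighbour Cep41, which encodes a centrosomal protein, so that the high coverage of the window was mostly outside Mest.

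Kcnq1ot1 (minus strand, chr7:143203458-143296549) has its promoter inside an intron of Kcnq1, which encodes a potassium channel subunit. Both sites at this promoter lay downstream of the TSS at 143296549, from 60 to 342 bp and from 912 to 1376 bp. The nearest site upstream was 13493 bp away. The control region, spanning both islands of the promoter over 1155 bp, was covered for 516 bp or 44.7%. The islands of 246 and 420 bp were covered for 71.5 and 55.5%. Of the 17 sites of the window, 8 lay in the transcribed region of Kcnq1ot1 and 9 outside it, all of them within Kcnq1, which had 30 sites over its length. Since the RNA lies within Kcnq1, these sites cannot be assigned to either gene.

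Snrpn (minus strand, chr7:59982495-60140219) had a single site in its window, and this lay at its TSS. It ran from 155 to 639 bp downstream of the TSS at 60005111 (chr7:60004472-60004956), in the region that Snrpn shares with the Snurf promoter. On the downstream side 774611 bp without a site followed, as far as the sites near the promoter of Ube3a, which encodes a ubiquitin ligase. On the upstream side 239263 bp were free. The downstream stretch holds 210 annotated snoRNA genes and no protein-coding gene that lies wholly within it, and 57.9% of it is repeat sequence and 50000 bp are an assembly gap. No island was called at this promoter, so the control region, methylated on the maternal allele, was taken as 1 kb on either side of the TSS, of which 24.2% was covered. In the Snrpn window 93.6% of the words of 75 bases, the length of the reads, occur only once on the chromosomes. This was the lowest value of the 10 windows.

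H19 (minus strand, chr7:142575529-142578143) and Igf2 (minus strand, chr7:142650766-142666816) share the control region upstream of H19, which is methylated on the paternal allele. H19 itself had a site from -396 to -171 bp and another from -2423 to -1782 bp. The second covered 424 bp, or 21.2%, of the control region and contained word 3 of the CTCF words, at -2179 to -2166 bp. Words 1 and 2, at -3904 to -3891 and -2634 to -2621 bp, lay in the adjacent stretch of 126315 bp without a site. This stretch contains all of Igf2, which had no site in its body and none at its 9 TSSs. Its islands of 2947 and 479 bp were both uncovered, and the nearest site to the TSS at 142657496 was 49386 bp upstream, in an intron of Ins2. The remaining site of the H19 window lay at the promoter of Mrpl23, a mitochondrial ribosomal protein gene, and covered its 440 bp island in full. H19 and Igf2 thus differed, with a promoter site in the first and none in the second.

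**Figure D3:**
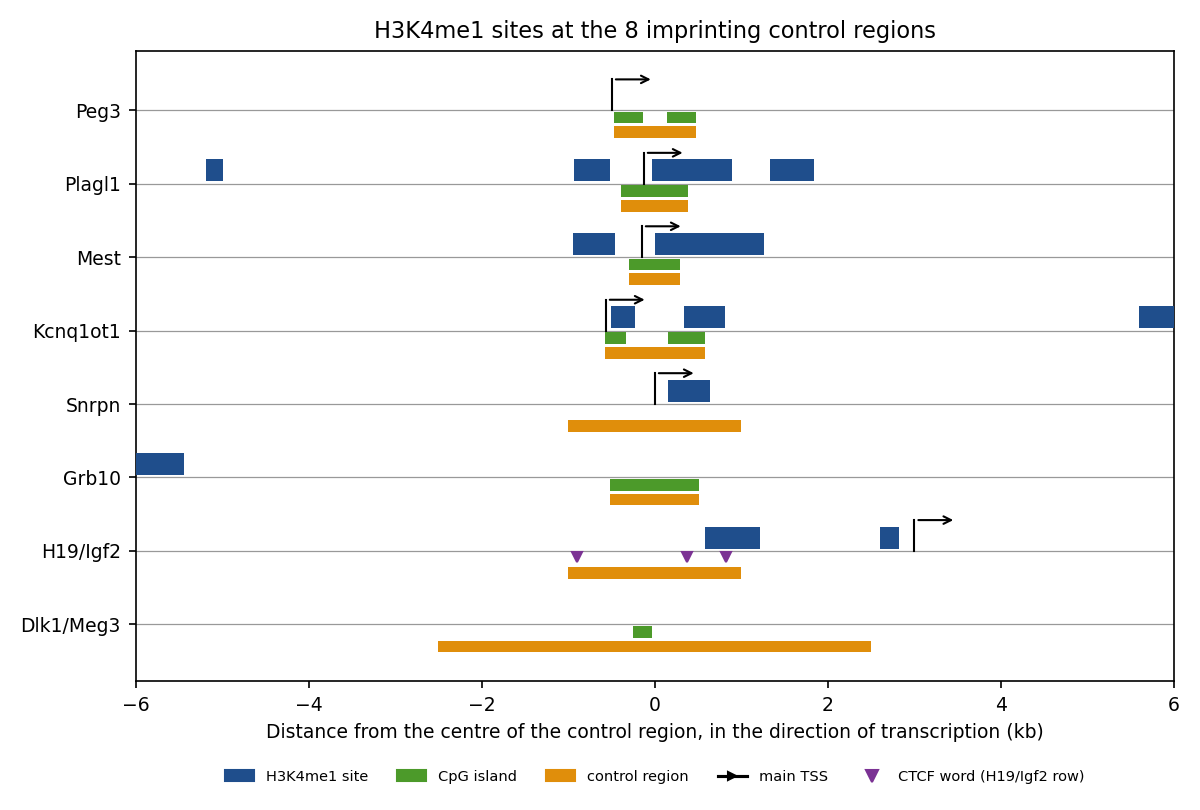
H3K4me1 sites (blue) and CpG islands (green) within 6 kb of the centre of each control region (orange), in kb in the direction of transcription; arrows mark the TSS and triangles the CTCF words upstream of H19. Sites overlap the control regions of Plagl1, Mest, Kcnq1ot1, Snrpn and H19/Igf2, and 1 of the 3 CTCF words lies in a site.

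Peg3 (minus strand, chr7:6703892-6730431) lay in a stretch of 477882 bp without a site (chr7:6435730-6913611), and its TSS at 6730421 was 183191 bp from the nearest site. Of the 160088 stretches between neighbouring sites, 406 or 0.254% were at least as long. The 10 protein-coding genes that lie wholly within it are Peg3, its imprinted neighbour Zim1 and 8 olfactory receptor genes. The promoter region held 2 islands, of 335 and 336 bp, whose span of 948 bp is the control region, methylated on the maternal allele. Usp29, which is imprinted and starts from the same region in the opposite direction, likewise had no promoter site. In the Peg3 window 99.8% of the words of 75 bases occur only once.

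Dlk1 (plus strand, chr12:109452823-109463336) and Meg3 (plus strand, chr12:109541001-109571726) lay together in a longer stretch without a site, of 679302 bp (chr12:109068446-109747747). This is among the 267 longest of the 160088 stretches (0.167%). Besides Dlk1, Meg3, Rian and the retrotransposon-derived Rtl1 it contains 67 annotated miRNA and 23 snoRNA genes of the cluster. The TSS of Dlk1 was 294899 bp and that of Meg3 202350 bp from the nearest site. The 862 and 284 bp islands of Dlk1 were uncovered, as was the control region between the genes, placed 10 to 15 kb upstream of the most upstream Meg3 TSS and methylated on the paternal allele. Of all genes, 21.5% had no site in their window, and of genes with an island at the promoter 2.98% did, a group to which Peg3 and Dlk1 belong. In the distance from the TSS to the nearest site, 209 of 14582 genes with an island (1.43%) were as far as Peg3 and 131 (0.898%) as far as Dlk1. Among all genes, with or without an island, such distances were less rare. Here 12.99% were as far as Peg3, 12.35% as far as Meg3, which has no island at its promoter, and 9.97% as far as Dlk1.

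Grb10 (minus strand, chr11:11930508-12038683) was the member with most sites, and they were placed unevenly. Of the 32, 24 lay in the gene, which was covered for 20.6% of its length. In the direction of transcription, 3 of these lay in the first 6 kb and 21 in the part more than 50 kb downstream of the TSS at 12037401. Between these groups a stretch of 52199 bp held no site. This stretch contains the internal island of 1026 bp, which is the control region, methylated on the maternal allele, and the promoter used in neurons. The site nearest to this island was 4931 bp away. The main promoter has an island of 1400 bp, which was also free, with the nearest sites 1815 bp upstream and 1316 bp downstream of the TSS. The neighbour Ddc, which is imprinted in heart and encodes an enzyme of dopamine synthesis, had 18 sites over its body and none within 1 kb of its TSS.

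Taking the control regions as a group, 5 of 8 were overlapped by a site by at least 1 bp. The regions measure 592 to 5000 bp and not all were placed on an island. No share over like regions of the genome was computed, so the counts of regions are descriptions only. The share covered ran from 21.2% at H19/Igf2 to 54.1% at Plagl1 where there was an overlap. Of the 6 that are methylated on the maternal allele 4 were overlapped, and of the 2 methylated on the paternal allele 1 was. Of the 18 CpG islands in the windows 6 were overlapped, against 77.4% of all 16099 islands. These 6 were 4 islands at the promoters of Plagl1, Mest and Kcnq1ot1 and those of Cep41 and Mrpl23. The 12 uncovered islands include all of those in the windows of Igf2, Peg3, Dlk1, Meg3 and Grb10.

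Paternally and maternally expressed genes were then compared. The 7 paternally expressed genes had 41 sites in all, and a median of 0.241% of the window was covered, with a range of 0 to 9.37%. The 3 maternally expressed genes had 35 sites, a median of 2.89% and a range of 0 to 13.9%. The paternal range lies within the maternal range, and only Grb10 lies above 9.37%. Grb10 alone gave 32 of the 35 sites. A promoter site was found at 4 of 7 paternally and 1 of 3 maternally expressed genes, and 2 of 7 and 1 of 3 had no site in the window. With genes that share loci and a set without replicates, no test was made, and these values do not separate the groups. Distances from the TSS to the nearest site were 60 to 160 bp for Kcnq1ot1, Plagl1, Snrpn and Mest, followed by 171 bp for H19, 1316 bp for Grb10 and 49386 bp for Igf2.

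**Figure D4:**
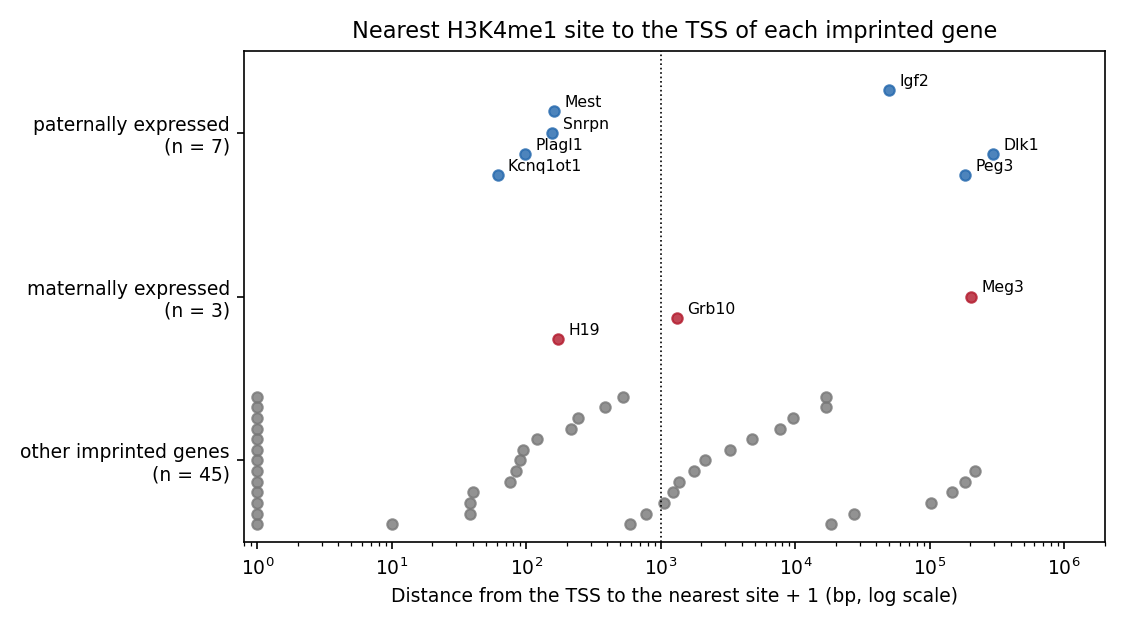
Distance from the TSS to the nearest H3K4me1 site, plus 1 bp and on a log scale, for the 7 paternally expressed (blue) and 3 maternally expressed (red) genes and for 45 other imprinted genes (grey); the dotted line marks 1 kb. Kcnq1ot1, Plagl1, Snrpn, Mest and H19 lie left of the line, and Peg3, Meg3 and Dlk1 at more than 100 kb.

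As a wider view of imprinting, 45 other imprinted genes of the annotation were examined. Of these, 28 (62.2%) had a promoter site, against 38.6% of all genes, and 13 (28.9%) had the TSS covered, against 23.2%. Of the 31 with an island 23 (74.2%) had a promoter site, below the 90.3% of all genes with an island. Their median share of bases covered was 5.01%, close to the 5.11% of all genes and higher than that of the 10 members. Most of them are protein-coding, and their median was below the 7.86% of all protein-coding genes and the 10.5% of genes with an island. The genes without a site in the window were Zim1, Rtl1 and Rian, all of which lie in the stretches around Peg3 and Dlk1. The highest shares were found at Mcts2 (43.2%) and at H13 (39.3%), in whose intron Mcts2 lies. Further genes were chosen after their values were seen, for their place next to a member or in the same imprinted region as a member. Copg2, next to Mest, had a site over its TSS, as did Kcnq1. Within the Prader-Willi and Angelman region that includes Snrpn, promoter sites were found at Snurf, Ube3a, Magel2, Mkrn3 and Peg12, and not at Ndn, whose nearest site was 1776 bp away.

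The sites were also checked against the cell type. Of 15 fibroblast genes 14 (93.3%) had a promoter site (all but Col3a1), against 38.6% of all genes, with a median of 18.5% of the window covered. Of 19 genes of other cell types 8 (42.1%) had one, with a median of 7.39%. These types differed among themselves. All 4 epithelial genes had a promoter site, namely the adhesion genes Cdh1 (16.1% of the window covered) and Epcam (7.07%) and the keratin genes Krt8 (30.3%) and Krt18 (34.0%), and the keratin windows were covered above the fibroblast median. Of the 15 genes of blood, endothelial, pluripotent, neural and liver cells, 4 (26.7%) had a promoter site, namely Tek, Dppa3, Neurod1 and Snap25, with a median of 5.01%. The check by promoter sites therefore does not separate fibroblast from epithelial genes. Of the 8 sites at genes of other cell types, 4 were at promoters with a CpG island and 4, at Krt8, Tek, Dppa3 and Snap25, were not. Expression of the imprinted genes was not analysed here.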

How the data were processed

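H3K4me1 ChIP-seq was performed in NG3 cells. Per the labels and the methods, the authors aligned trimmed reads to mm10 (BWA), filtered the alignments (SAMtools), combined replicates and ran MACS2 for broad peaks. The tool versions are not given in the sources used here. The deposited values are positions in bases, the start (counted from 0) and end of each peak in a set pooled over all samples. The depth per library is not in this table. The methods do not say whether peaks were called on all samples together or per condition and then joined. In either case a peak set depends on depth and on the threshold of the caller, so weak sites can be missed and neighbouring sites split.

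Python 3.11.15, numpy 2.4.6 and numba 0.67.0 were used for overlaps (at least 1 bp), coverage and distances, and matplotlib 3.10.9 for figures. Printed coordinates count from 1. Of the sites, 160108 on chromosomes were used and 36 on scaffolds were left out. Genes and TSSs came from GENCODE release M21, where the main TSS was that of the best supported transcript (lowest support level, then basic tag, then longest). Release M25, which the methods name, was not used here. The repeat-masked GRCm38.p6 sequence was scanned for CpG islands (each CpG scored 17, any other base -1). Islands had to exceed 200 bp and an observed to expected CpG ratio of 0.6, with GC no lower than 50%. Control regions were placed from annotation and sequence: the island or islands at the promoter, for Snrpn the promoter itself, for Grb10 the internal island, and for H19/Igf2 and Dlk1/Meg3 approximate textbook distances. Functions were tested on simulated data. The members and gene lists were chosen with earlier results of these data known. Named genes are the members, their neighbours, and other imprinted genes by highest and lowest coverage; genes added after their values were seen are marked as such. Of 46 other imprinted genes listed, 45 were matched by symbol.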

Additional observations from a re-analysis of the deposited data

How the results depend on the processing

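Of 29 alternatives to 7 results, 13 left the value within a set tolerance, 16 moved it and 0 turned a direction. Only the paternal minus maternal difference has a direction, so the other results could not turn. The tolerance was 1.5 times for a count, and for a median share or a difference of medians the 95% binomial interval over the bases of a window of median length (0.0679 and 0.0878 percentage points), which takes bases as independent, although they are not. Of the 29 alternatives, 3 were chosen after seeing the data (the assembly gap left out, for 2 results, and the Dlk1/Meg3 region placed from the best supported Meg3 TSS). Leaving the gap out changed only the share of Mest, which lies above the medians used, so neither result could move. The Dlk1/Meg3 region lay in the same stretch without a site under either placement. With 20 and 100 kb flanks the windows held 50 and 122 sites, the median share covered was 1.14 and 2.47%, and the paternal minus maternal median was -1.79 and -3.88 percentage points, against -2.65 with 50 kb. Without Grb10 this difference was -1.20. A minimum width of 500 bp left 49 sites, a median of 1.34%, 2 promoters with a site and 3 control regions. Merging sites within 1 kb gave 49 sites and covered 2 of the 10 TSSs. With any annotated TSS, 2 genes had a covered TSS. With islands of at least 500 bp, 3 of 7 islands were overlapped. When at least 50% of a control region had to be covered, 1 region passed in place of 5. Why the values moved was not tested.

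The set gives no depth, height or p-value of a site, and its strength is unknown. No paired analysis was possible because sites were pooled over libraries, and leaving out a library was not possible either.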
